A study of Citrus sinensis with 12 samples.

Results

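The comparison described here is the response of sweet orange (Citrus sinensis) roots to excess copper in an acid medium, at pH 3. Its members were chosen by level: of the 20122 genes listed in the deposited tables, the 18626 whose mean reached 1 FPKM in roots at 300 µM CuCl2 or in roots at 0.5 µM CuCl2, both at pH 3, were tested. FPKM counts the sequenced fragments of a gene relative to its length and to the sequenced total of its library. The copper-treated group had 3 libraries and so did its control. All seedlings had been treated for 17 weeks, and the labels name 4.8 as the control pH, so both groups carried the low pH and differed in copper alone. Each library was made from roots of 4 seedlings from separate pots pooled in equal amounts, and the spread among libraries is therefore that among pools. The 6 libraries at pH 4.8, 3 at 0.5 µM and 3 at 300 µM CuCl2, were used for comparison. The files pair no identifier with a gene name or function, and 0 of the listed identifiers occur in the RefSeq gene table of the species. Genes are given here by position, and those with the largest moderated statistics also by identifier. The build behind the positions is not given in the sources used here, and neither are exon structures, so no sequence is shown.

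Copper is a cofactor of plant enzymes of respiration, lignification and superoxide removal, and it is toxic in excess because the free ion catalyses the formation of reactive oxygen species and binds thiol groups of proteins. Roots meet the metal first and hold much of what the plant takes up. In acid media more of the copper is present as the free ion, and the protons themselves injure root cells.

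Differences were computed on log2(FPKM + 1) as copper minus control, and a call required a p-value below 0.05 in limma, fitted to the 6 libraries at pH 3, after Benjamini-Hochberg adjustment over all tested genes. A difference of 1 on this scale is referred to as 2-fold, and it understates the change of genes near or under 1 FPKM. Between 17920000 and 21860000 fragments stood behind each of the 6 libraries, an estimate read from the spacing of the low values. At these depths 3 fragments on a gene of 1 kb gave 0.137 to 0.167 FPKM, which is used as a floor and reflects counting error alone. Control libraries correlated with each other across genes at r = 0.990 to 0.991. The copper-treated libraries correlated at r = 0.987 for replicates 1 and 3, and replicate 2 correlated with these at 0.977 and 0.971. Across genes, the median SD among replicates was 0.18 (log2) under copper and 0.11 in the control. Replicate 2 of the copper-treated group thus stood apart from its group, and results that rest on it are given with and without it.

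Copper changed 5644 genes at pH 3, 30.3% of those tested. Of these 3264 rose (17.5% of those tested) and 2380 fell (12.8%). The median rise was 0.72 log2 units and the median fall was -0.60. Rises of 2-fold or more numbered 892 (4.79%), and such falls numbered 334 (1.79%). In 887 of these 892 the 3 copper-treated libraries all lay above the 3 controls, and in 332 of the 334 they all lay below. Over all tested genes, called or not, the libraries failed to overlap upward for 25.1% and downward for 20.3%. In each of the 6 fits that left out 1 library, 863 of the 892 rises and 315 of the 334 falls were called. Both sets were picked on these same libraries, so these counts and those of overlap are a description.

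The number of calls changed when single libraries were left out. Without copper-treated replicate 2 there were 7366 calls, although 1 library fewer was used, and 5367 of the 5644 were among them. Changes of at least 2-fold then numbered 926 rises and 415 falls. Without control replicates 1, 2 and 3 in turn there were 3743, 3600 and 4118 calls. Without copper-treated replicates 1 and 3 there were 3998 and 5083. These fits also have 1 library fewer, and the part of this in the lower numbers was not tested. The balance of rises and falls over all calls depended on the scale. Rises made up 57.8% of the calls, against 44.1% when each library was centred on its median (2591 higher, 3281 lower) and 48.9% under quantile normalization (2792 higher, 2913 lower). Among 2-fold changes rises were the larger side under all 16 alternatives tried.

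**Figure D1:**
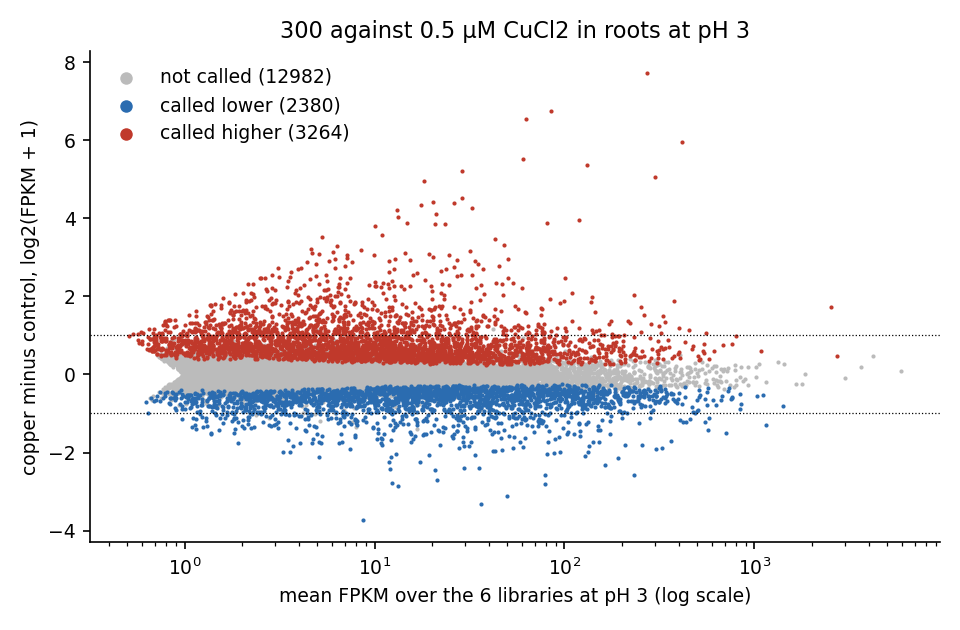
Copper minus control difference on log2(FPKM + 1) for each of the 18626 tested genes against its mean FPKM over the 6 libraries at pH 3 (log scale). Red points are the 3264 genes called higher, blue points the 2380 called lower, grey points were not called, and dotted lines mark a difference of 1 and -1. Rises reach 7.72 and falls -3.73.

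The genes that moved by at least 2-fold made up a small share of the transcript pool, and that share shifted in opposite directions for rises and falls. As they were picked on this contrast, their shares are a description. The 892 rises held 1.88%, 1.78% and 1.90% of the summed FPKM in control replicates 1, 2 and 3, and 6.08%, 6.54% and 5.61% in the copper-treated replicates. The 334 falls held 4.65%, 4.75% and 4.72% in the controls and 1.64%, 1.98% and 1.72% under copper. The median control level of the rises was 2.57 FPKM and that of the falls was 27.3 FPKM. Under copper the medians were 10.2 and 9.94 FPKM. These levels are a description for the same reason.

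The rise measured with the largest moderated statistic was Cs5g21860 on chromosome 5 (24360056 to 24361268, plus strand). It stood at 13.56, 11.61 and 11.31 FPKM in the control libraries and at 691.29, 1050.49 and 729.20 FPKM under copper. A lack of overlap between libraries was a condition for the genes named by identifier. Replicate 2 was the highest under copper. The difference was 5.95 (SE 0.16, limma adjusted p = 1.4e-06). At pH 4.8 copper raised the same gene from 13.8 ± 4.67 to 38.1 ± 7.89 FPKM (SD, n = 3 per group). That difference was 1.43, and the response at pH 3 was larger by 4.52 (SE 0.30, limma interaction adjusted p = 1.0e-06). Genes named by identifier were picked for their difference at pH 3. Their interactions include that difference and are a description.

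The next rise by this measure was orange1.1t03024 on unplaced sequence (47124099 to 47126213, plus strand). It stood at 15.92, 16.51 and 16.58 FPKM in the controls and at 482.64, 735.95 and 529.26 FPKM under copper, again with replicate 2 highest. The difference was 5.05 (SE 0.15, limma adjusted p = 1.4e-06). At pH 4.8 the gene was called lower under copper, at 7.87 ± 2.39 against 13.7 ± 5.99 FPKM (SD, n = 3 per group), with a difference of -0.69 (adjusted p = 0.035 in limma). Its copper differences at both pH values thus had opposite signs, and the interaction was 5.74 (SE 0.36, adjusted p in limma 5.9e-07).

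The falls with the largest statistic were even among libraries. Cs4g15770 on chromosome 4 (15102198 to 15104117, plus strand) was at 32.67, 34.25 and 28.99 FPKM in the controls and at 6.52, 6.79 and 7.23 under copper. The difference was -2.07 (SE 0.10, limma adjusted p = 1.7e-05). At pH 4.8 it fell by 1.88, and the interaction of -0.19 was not called (limma adjusted p = 0.33). The gene orange1.1t00563 on unplaced sequence (6663325 to 6664007, plus strand) went from 89.82, 93.35 and 85.91 FPKM to 25.82, 25.12 and 28.72, with a difference of -1.72 (SE 0.09, adjusted p in limma 1.9e-05). It fell further at pH 4.8, by 2.36, with an interaction of 0.64 (SE 0.11, limma adjusted p = 0.0012). Calls for these 4 genes held under all 16 alternatives.

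**Figure D2:**
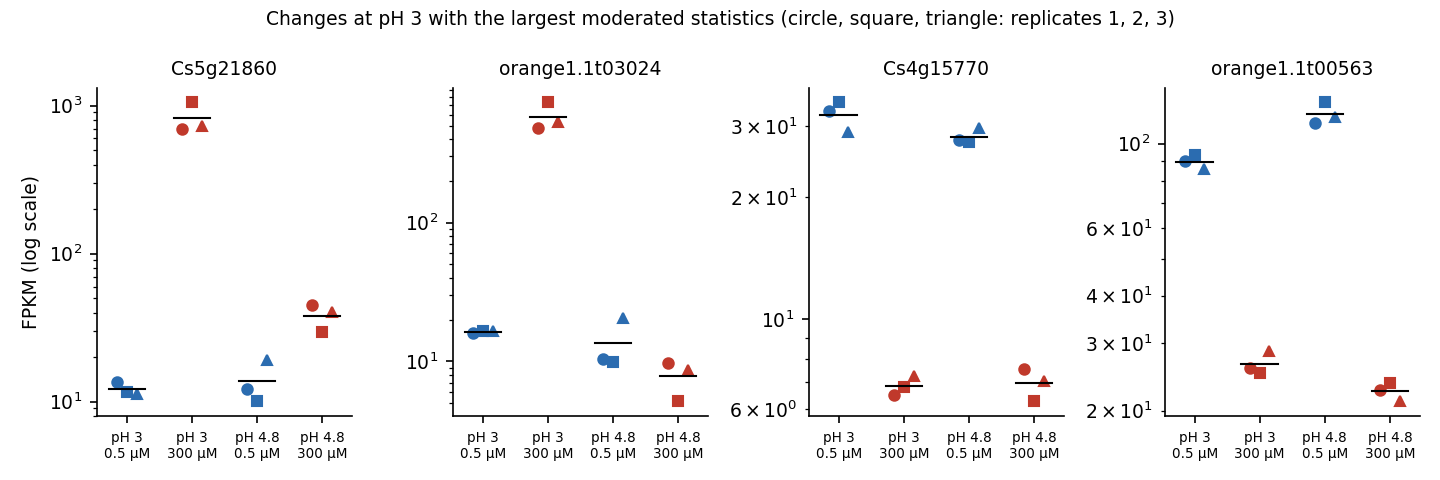
FPKM (log scale) of the genes named by identifier in each of the 12 libraries, by pH and CuCl2 level. Circles, squares and triangles are replicates 1, 2 and 3, blue marks 0.5 µM and red 300 µM CuCl2, and bars are group means. Cs5g21860 and orange1.1t03024 rose at pH 3 to means of 824 and 583 FPKM, whereas Cs4g15770 and orange1.1t00563 fell at both pH values.

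In absolute terms the gene that gained most was on chromosome 9 (2313276 to 2314373, minus strand). Its FPKM was 1107.24, 1166.95 and 1141.31 in the controls and 3264.73, 5443.79 and 3000.01 under copper, which is a rise of 1.72 (SE 0.21, limma adjusted p = 0.00067). Copper-treated replicate 2 was the highest there too. Second by gain, the gene at 7521236 to 7521691 on chromosome 4 went from 2185.02, 2380.94 and 2273.04 FPKM to 3022.27, 3780.06 and 2754.16, a difference of 0.47 (SE 0.15, adjusted p in limma 0.043). Its groups did not overlap, but the call was lost under 8 of 16 alternatives, among them the omission of copper-treated replicate 1 and of each control library. The third-largest gain was that of Cs5g21860.

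The largest losses in FPKM were met by genes that ranked among the abundant ones in control roots. The largest was on chromosome 9 (3129179 to 3130180), where FPKM fell from 1683.45, 1625.58 and 1613.17 FPKM to 596.13, 730.94 and 699.31, a difference of -1.28 (SE 0.11, limma adjusted p = 0.00013). A gene on chromosome 6 (16519930 to 16522520) fell from 1802 ± 58.4 to 1031 ± 156 FPKM, and one on chromosome 3 (23776983 to 23779487) from 1042 ± 29.8 to 369 ± 49.8 FPKM (SD, n = 3 per group). Their differences were -0.82 (SE 0.13, limma adjusted p = 0.0024) and -1.5 (SE 0.12, limma adjusted p = 7.2e-05). In all 3 genes no copper-treated library reached the lowest control.

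Abundant genes did not all move. Of the 1112 genes that averaged 100 FPKM or more across the 6 libraries, 364 fell, 189 rose and 559 were not called. The 3 of them with the smallest differences lay on chromosome 4 (2139081 to 2144949, 106 ± 0.418 FPKM in controls and 106 ± 4.0 under copper), chromosome 5 (29761632 to 29762039, 1843 ± 153 and 1853 ± 237) and chromosome 2 (6788141 to 6790018, 206 ± 13.3 and 207 ± 13.7; SD, n = 3 in each group). The gene on chromosome 5 was not flat everywhere: at pH 4.8 copper lowered it from 2429 ± 178 to 524 ± 111 FPKM, and the interaction was called at 2.24 (SE 0.22, limma adjusted p = 1.9e-05).

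The share of falls was larger at higher levels of expression. Among genes of at least 100 FPKM 32.7% fell and 17.0% rose, and the median difference was -0.15. Among the 10937 genes from 5 to 100 FPKM 13.9% fell and 17.4% rose. Among the 6577 genes under 5 FPKM 7.62% fell and 17.8% rose, with a median difference of 0.06. The larger side in the highest and in the lowest class held under all 16 alternatives. The side of the middle class turned under median scaling, quantile normalization and centring by span. Quantile normalization brought the sides close, to 869 rises and 810 falls in the lowest class and 262 and 311 in the highest. In the highest class copper-treated replicates 1, 2 and 3 had median offsets of -0.11, 0.02 and -0.11 from the mean of the 6 libraries. The controls had 0.07, 0.11 and 0.05. The part of these offsets in the calls was not tested. The number of falls changed when single libraries were left out, which also leaves 1 library fewer. Under 5 FPKM, 501 fell with all libraries, and 279, 268, 312 and 304 fell without control replicates 1, 2 and 3 and copper-treated replicate 1. From 5 to 100 FPKM, 1515 fell, against 871 and 854 without control replicates 1 and 2. Of the abundant genes, 240 fell without control replicate 2. In the highest and the lowest class the sides were also the same at pH 4.8, where 45.0% of the abundant genes fell and 26.9% rose.

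At the low end, some genes went from the floor to a clear signal. In 33 genes all 3 control libraries were at or under the floor while all 3 copper-treated libraries were above it, and the reverse occurred for 0 genes. As their copper-treated libraries alone carried them past the filter, these genes had to differ, and their calls are not counted. With a fixed floor of 0.5 FPKM the numbers were 164 and 21. The strongest was an assembled locus (a locus without an annotated identifier) on unplaced sequence from 8609164 to 8610312, listed at 0 in all 3 controls and at 10.25, 12.74 and 8.92 FPKM under copper. This locus also rose at pH 4.8, where copper-treated libraries had 10.03, 7.70 and 6.47 FPKM.

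The other genes picked in this way by level behaved differently at pH 4.8. One on chromosome 1 (5556846 to 5558286) was at 0.07, 0.14 and 0.00 FPKM in the controls and at 10.62, 11.54 and 5.57 under copper at pH 3, while at pH 4.8 copper lowered it from 0.93, 1.19 and 0.87 to 0.22, 0.13 and 0.07 FPKM, a difference of -0.81 (adjusted p in limma 0.0047). Another on chromosome 2 (13035330 to 13036815) was at 0.08, 0.16 and 0.00 FPKM in the controls, at 5.70, 6.94 and 3.09 under copper at pH 3 and at 0.08, 0.23 and 0.25 under copper at pH 4.8. Their interactions were 4.01 (SE 0.28) and 2.36 (SE 0.29). These include the difference at pH 3 for which the genes were picked, so they are a description. Of the 33 genes, 12 were at or under the floor in all 6 libraries at pH 4.8, and 2 were above it in all 3 copper-treated libraries there. Copper-treated libraries at pH 3 also had few genes listed at 0, 15, 14 and 8 in replicates 1 to 3, against 56, 49 and 41 in their controls. At pH 4.8 the copper-treated libraries had more, 118, 109 and 88, against 53, 83 and 45. Of the 6 libraries at pH 3, copper-treated replicates 2 and 3 were the deepest and replicate 1 the least deep. The part of the 33 genes and of depth in the difference at pH 3 was not tested.

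Some of the changed genes lay side by side. Taking the listed genes in their order on the 9 chromosomes, 22 runs of at least 3 neighbours rose together by at least 2-fold each, and 5 runs fell together. The runs held 76 of the 892 rises (8.52%) and 17 of the 334 falls (5.09%). Unplaced sequence was left out of the runs, and it held 153 of the 892 rises and 61 of the 334 falls. On a single strand lay 13 of the rising and 3 of the falling runs. Neighbouring genes can be copies of one another, and the treatment of reads that match several copies is not given in the sources used here. How far shared reads contribute to these runs was not tested. Run members were picked for their change at pH 3. Their differences there, and the interactions that include them, are a description.

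The run with the most genes comprised 7 within 89.0 kb on chromosome 9 (13887366 to 13976316). Its first gene (13887366 to 13888819) was at 1.5, 2.08 and 1.52 FPKM in the controls and at 32.36, 59.56 and 28.34 under copper, a rise of 3.86 (SE 0.25, limma adjusted p = 3.7e-05). The sixth gene (13958079 to 13958394) was at 0.00, 0.00 and 0.22 FPKM in the controls and at 6.28, 7.05 and 5.07 under copper. The 5 other genes had differences of 1.08 to 1.73. Genes 2, 4, 5 and 6 of the run averaged 0.83, 0.03, 0.57 and 0.07 FPKM in the controls. Their copper-treated libraries alone carried them past the filter. At pH 4.8 copper raised 4 of the 7, and the interaction was called for 5, each with the larger rise at pH 3. The first gene, the sixth and 1 other of the run were not called for copper at pH 4.8.

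A run of 5 genes on the plus strand of chromosome 1 (16854077 to 16931000) rose at both pH values. Its differences at pH 3 were 1.41 to 2.1, and the fifth gene (16928250 to 16931000) went from 7.01, 8.78 and 7.50 FPKM to 37.80, 41.98 and 30.47. At pH 4.8 all 5 were called higher, with a mean difference of 1.46 against 1.71 at pH 3. The interaction was called for 1 of them, the third, which averaged 0.72 FPKM in the controls at pH 3. A run of 4 on chromosome 5 (24360056 to 24377606) started with Cs5g21860. Next to that gene lay a pair of assembled loci without a strand (24366991 to 24367516 and 24368952 to 24369594). The former rose from 0.10, 0.51 and 0.00 FPKM to 35.33, 29.83 and 43.88, and the latter from 0.57, 1.34 and 0.66 FPKM to 25.61, 51.36 and 42.66. The genes after Cs5g21860 averaged 0.20, 0.86 and 0.78 FPKM in the controls at pH 3 and passed the filter through copper alone. The interaction was called for all 4 genes of this run, with a mean difference of 4.40 at pH 3 and 0.67 at pH 4.8.

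The run on chromosome 5 described above tied with 3 others of 4 genes and was taken for its larger mean difference. Of the other runs, a few were picked out after their values were seen. The 2 largest rises at pH 3 were both in runs. The run on chromosome 3 from 767533 to 783737 held 3 genes with differences of 2.06 to 7.72, and that on chromosome 5 from 28503127 to 28618502 held 4 genes with differences of 1.83 to 6.75, both on the minus strand. The interaction was called for every gene of both runs, with mean differences at pH 4.8 of 0.13 and 0.67. In a run of 4 genes on chromosome 9 (5838744 to 5845849) the mean difference was 1.87 at pH 3 and -1.27 at pH 4.8, where 1 gene was called lower and 0 higher. In contrast, 3 genes on chromosome 4 (16955746 to 16966344) rose by a mean of 3.34 at pH 3 and 2.57 at pH 4.8, with 0 interactions called.

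The falling run with the most genes comprised 5 on the plus strand of chromosome 2 (20467598 to 20541911). Its first gene (20467598 to 20468864) went from 22.52, 32.35 and 31.80 FPKM to 4.32, 10.18 and 3.10, a difference of -2.24 (SE 0.33, limma adjusted p = 0.0015). In this gene and the 4 others copper-treated replicate 2 lay nearest to the controls, and the differences of the 4 others were -1.68 to -1.32. At pH 4.8 3 of the 5 fell, and the interaction was called for 0 of them. The 4 other falling runs each held 3 genes, and the pair with the larger mean differences follows. That on chromosome 1 (6210481 to 6218248) began with an abundant gene that went from 476.01, 533.59 and 527.05 FPKM to 117.62, 192.64 and 114.02, a difference of -1.89 at pH 3 against -0.04 at pH 4.8. That on chromosome 2 (8803866 to 8816937) centred on a gene that went from 214.57, 220.84 and 206.57 FPKM to 44.80, 61.67 and 53.56. All 3 genes of that run fell at pH 4.8 as well.

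**Figure D3:**
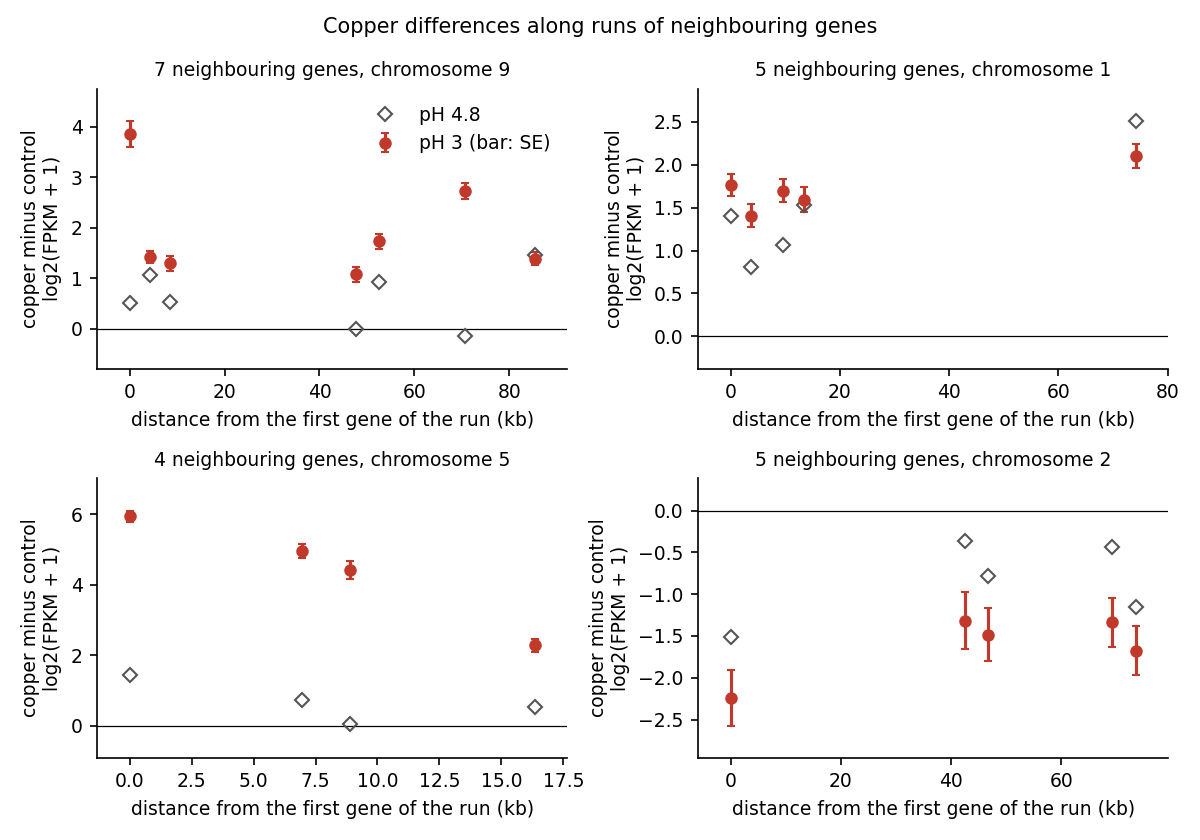
Copper minus control differences on log2(FPKM + 1) of neighbouring genes, against the distance of each gene from the first of its run in kb. Filled circles with bars are differences at pH 3 and their SE, and open diamonds are differences at pH 4.8. The runs on chromosomes 9 and 5 lie mostly above their values at pH 4.8, while the run of 5 on chromosome 1 lies close to them.

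Called genes were spread over the genome. Between 29.0% and 32.5% of the tested genes of each chromosome were called, and the share with a rise of at least 2-fold was 3.97% on chromosome 4 at the lowest and 6.59% on chromosome 9 at the highest. Assembled loci were called in 28.2% of 1220 cases, identifiers on chromosomes in 30.8% of 14906 and identifiers on unplaced sequence in 28.4% of 2500. Falls of at least 2-fold made up 3.77% of the assembled loci and 1.64% of the identifiers on chromosomes. Assembled loci were shorter, with a median of 1.25 kb from start to end against 3.29 kb. Over all tested genes such falls made up 5.80% under 1 kb, 3.51% from 1 to 2 kb and 1.09% from 2 to 4 kb. These differences between classes were not tested.

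In the fit to the 6 libraries at pH 3, genes under 2 kb were called more often than longer ones. For rises this changed with the libraries used and with the fit. Span here is the distance from the start to the end of a gene, introns included. Of the 1863 genes under 1 kb 35.0% were called, with 8.21% higher and 5.80% lower at a 2-fold change or more. Of the 3364 from 1 to 2 kb 38.6% were called, of the 6807 from 2 to 4 kb 31.6%, of the 5267 from 4 to 8 kb 25.2% and of the 1325 of at least 8 kb 16.2%. The share of falls went from 16.6% under 1 kb to 3.25% at 8 kb or more, and the share of rises from 18.4% to 13.0%. Without copper-treated replicate 2 the share of falls still declined, from 23.3% to 3.47%, but that of rises went up from 19.9% to 37.2%. Calls in both directions then made up 43.2% of the genes under 1 kb and 40.7% of those of at least 8 kb. With array weights, an alternative chosen after seeing the data, rises also went up, from 23.4% to 35.5%. The share of falls was lower at 8 kb or more than under 1 kb under all 16 alternatives. At pH 4.8, in the fit to all 12 libraries, falls declined with span, from 30.1% to 7.25%, and rises increased, from 21.1% to 39.2%. In that fit rises at pH 3 were 19.6% under 1 kb and 19.2% at 8 kb or more.

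The libraries themselves differed by span, and this offset moved with both the treatment and the replicate. Among genes of at least 10 FPKM and 8 kb or more, the median offset from the mean of the 6 libraries was 0.16 and 0.21 in copper-treated replicates 1 and 3 but -0.16 in replicate 2, and it was -0.08, -0.11 and 0.00 in the controls. Among genes under 1 kb the order was reversed, at -0.12 and -0.13 in copper-treated replicates 1 and 3, 0.16 in replicate 2 and 0.03, 0.09 and 0.00 in the controls. The libraries at pH 4.8 had offsets from the same mean too. Among the genes of at least 8 kb these were -0.12, -0.24 and -0.19 at 0.5 µM and 0.15, 0.06 and 0.04 at 300 µM CuCl2. Without copper-treated replicate 2 the rises among genes of at least 8 kb numbered 493 in place of 172, and the falls 46 in place of 43. Without control replicates 1 and 2 and copper-treated replicate 1 in turn, these rises numbered 99, 87 and 94. The falls numbered 23, 18 and 22 without control replicates 1, 2 and 3. When each library was centred within bins of span, an alternative chosen after seeing the data, genes of at least 8 kb had 112 rises and 124 falls. The numbers among long genes therefore changed with the libraries used, and their balance with the scale. The part of these offsets in the calls by span was not tested beyond these fits.

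**Figure D4:**
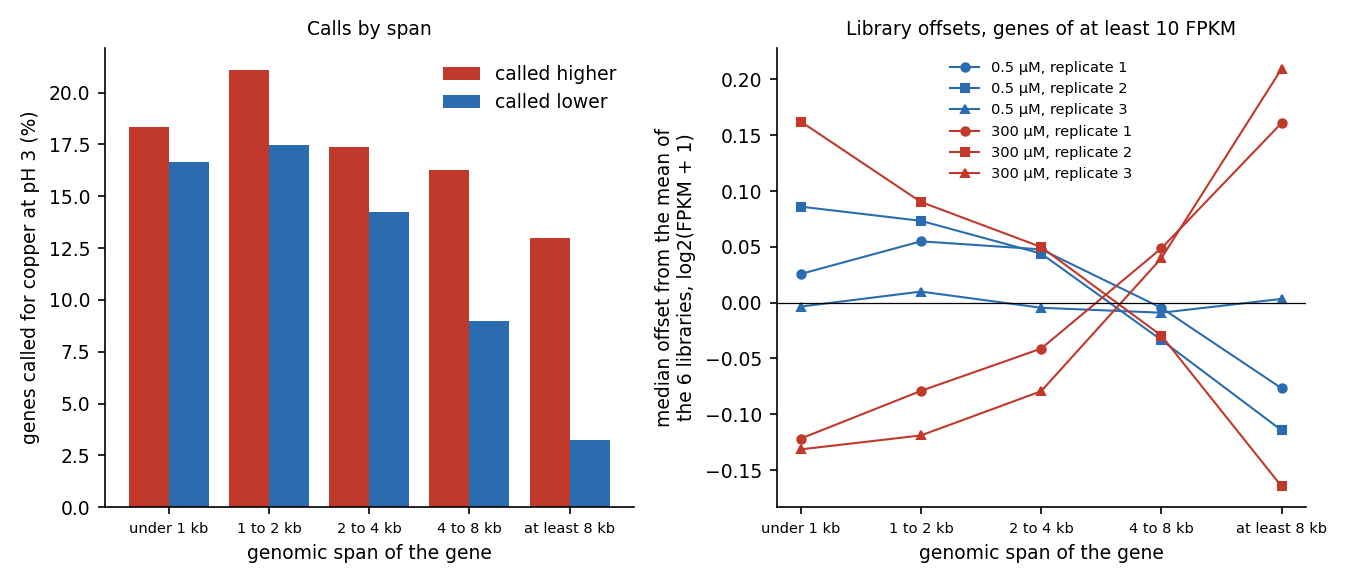
Left, the share of tested genes (%) called higher (red bars) and lower (blue bars) for copper at pH 3 with all 6 libraries, by genomic span. Right, the median offset of each library at pH 3 from the mean of the 6 libraries on log2(FPKM + 1), by span, for genes of at least 10 FPKM; red is 300 µM and blue 0.5 µM CuCl2, and circles, squares and triangles are replicates 1, 2 and 3. Copper-treated replicate 2 slopes down with span while replicates 1 and 3 slope up.

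Replicate 2 of the copper-treated group departed from the others mainly by low values. In 306 genes it lay at least 1 log2 unit below the mean of replicates 1 and 3, and in 66 at least 1 above. For the other 5 libraries the numbers against their own group were between 26 and 125 above and between 29 and 58 below. The median level of the 306 genes was 2.04 FPKM in replicate 2, 6.56 and 8.75 FPKM in replicates 1 and 3, and 3.99, 3.91 and 5.24 FPKM in the controls. As chosen, these genes were mostly uncalled, and copper was called for 21 of them. Replicate 2 was also the highest of the copper-treated libraries in 407 of the 892 rises of at least 2-fold (45.6%) and in 207 of the 334 falls (62.0%). Replicate 1 was the highest in 314 of the rises and 53 of the falls, and replicate 3 in 171 and 74.

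The same copper level at pH 4.8 is the most similar treatment, and it shares no library with the comparison at pH 3. In the fit to all 12 libraries, 52.2% of the 18626 genes were called for copper at pH 4.8, with 25.6% higher and 26.6% lower. Of the 892 genes that rose by at least 2-fold at pH 3, 570 were called higher at pH 4.8 (63.9%), 84 lower (9.42%) and 238 were not called. Of the 334 that fell by at least 2-fold at pH 3, 248 were called lower at pH 4.8 (74.3%), 7 higher (2.1%) and 79 were not called. By at least 2-fold in the same direction at both pH values, 354 genes rose, which is 39.7% of the rises at pH 3 and 29.6% of the 1194 rises at pH 4.8 (6.41% of genes tested). Likewise 141 genes fell by at least 2-fold at both, 42.2% of the falls at pH 3 and 15.8% of the 890 falls at pH 4.8 (4.78%). Read from pH 4.8, 13 of the 1194 rises fell at pH 3 (1.09%, against 12.8% of all genes tested), and 66 of the 890 falls rose at pH 3 (7.42%, against 17.5%). These shares were not compared with each other, and the balance of rises and falls at pH 3 depended on the scaling.

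Median levels place the rises in all 4 groups. The 892 genes had a median of 2.57 FPKM without and 10.2 FPKM with copper at pH 3, and of 2.14 and 5.06 FPKM at pH 4.8. The 334 falls had medians of 27.3 and 9.94 FPKM at pH 3, against 23.0 and 11.9 at pH 4.8. Sets picked for a large change at pH 3 tend to show a smaller one elsewhere, so these medians do not compare the strength of the responses.

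**Figure D5:**
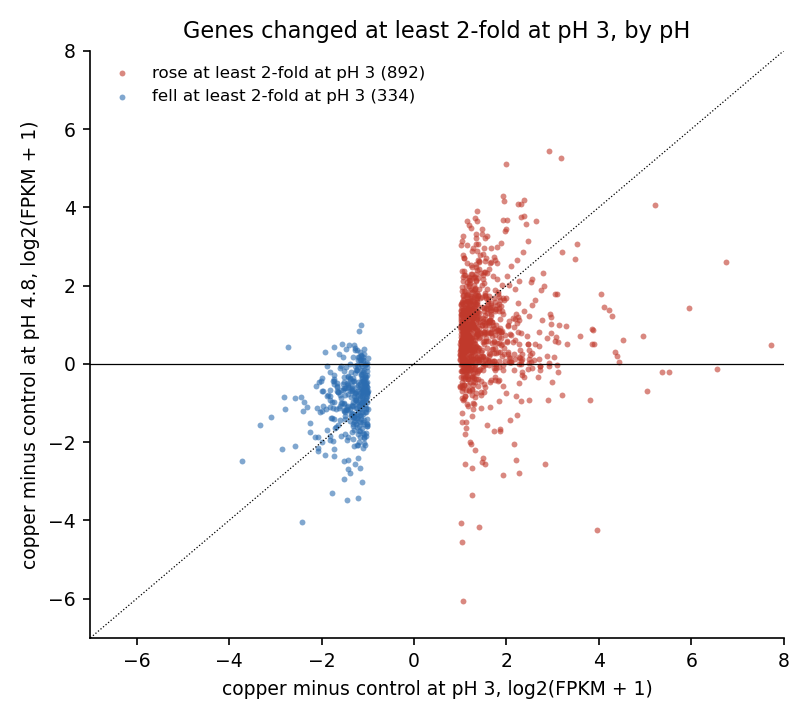
Copper minus control differences on log2(FPKM + 1) at pH 3 (horizontal) and pH 4.8 (vertical) for the 892 genes that rose (red) and the 334 that fell (blue) by at least 2-fold at pH 3. The dotted line marks equal differences. Rises spread over both sides of 0 at pH 4.8, with 84 called lower there, while 7 of the falls were called higher.

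The interaction subtracts the copper effect at pH 4.8 from the one at pH 3. It was called for 3905 of the 18626 genes (21.0%), with 2181 values above 0 (11.7%) and 1724 below (9.26%). Without copper-treated replicate 2 at pH 3 it was called for 4149 genes. The larger side turned with the scaling, to 1849 above and 1971 below under median scaling and 1890 above and 2042 below under quantile normalization. The largest interaction statistics above 0 among genes called at pH 3 belonged to genes that fell far less at pH 3. The gene at 24497006 to 24499262 on chromosome 3 went from 167.02, 201.42 and 189.88 FPKM to 114.15, 130.89 and 121.97 at pH 3. It went from 234 ± 19.1 to 16.5 ± 1.12 FPKM with copper at pH 4.8 (SD, n = 3 per group). Its differences were -0.60 and -3.75, an interaction of 3.15 (SE 0.13, limma adjusted p = 9.2e-08). On chromosome 2 (3529556 to 3531431) FPKM went from 388 ± 20.3 to 255 ± 39.6 at pH 3, and from 270 ± 6.82 to 21.6 ± 0.516 at pH 4.8. Here the interaction was 2.96 (SE 0.13, limma adjusted p = 1.0e-07).

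The largest interaction statistics below 0 belonged to genes that copper lowered at pH 3 and raised at pH 4.8. The first, on chromosome 3 (18641380 to 18646722), was at 88.26, 86.01 and 91.08 FPKM in the controls at pH 3 and at 56.48, 60.53 and 57.54 under copper. At pH 4.8 it rose from 26.1 ± 5.22 to 99.9 ± 5.96 FPKM (SD, n = 3 per group). This gave an interaction of -2.51 (SE 0.16, limma adjusted p = 8.6e-07). Another on chromosome 3 (22419247 to 22423786) fell from 138.09, 155.11 and 170.10 FPKM to 54.15, 55.31 and 55.74 under copper at pH 3. At pH 4.8 it rose from 67.7 ± 6.37 to 89.0 ± 5.29 FPKM. Its interaction was -1.86 (SE 0.13, limma adjusted p = 1.2e-06). Both genes were higher at pH 3 than at pH 4.8 without copper and lower at pH 3 with it, by their group means.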

How the data were processed

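Roots of Citrus sinensis seedlings were sequenced in 12 libraries, 3 in each of 4 groups set by pH and CuCl2. Groups follow the treatment label; the titles of the pH 4.8 controls give 5 µM. The authors deposited FPKM values to 2 decimals per library. The submitters' processing notes name DESeq2 1.22.1, StringTie 1.3.4d, featureCounts 1.6.2, HISAT2 2.1.0 and fastp 0.19.3 without role or order. Raw counts were not used here and no count test was run.

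FPKM was analysed as log2(FPKM + 1) in limma 3.58.1 (R 4.3.3) with a variance trend, for copper at pH 3 on the 6 libraries at pH 3 and for copper at pH 4.8 and the interaction on all 12. The tests are two-sided. A simulation of copper at pH 3 tested 18297 genes. In it 80.0% of 50 genes raised by 1 log2 unit were called, 78.0% of 50 lowered by 1 and 22.0% of 50 raised by 0.5. There were 7 false among 145 calls. Few genes were changed, all at a mean level of about 5 FPKM or more, and noise was drawn separately for each gene. The simulated rates therefore do not carry over to the measured libraries, where 30.3% of genes were called. Depth was taken from genes under 900 bp and 6 FPKM, of which 76.1% to 79.0% came within 0.15 of whole fragments per library, too few to rebuild counts.

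Members, lists and rules were chosen with earlier results of these data known. Genes named by identifier have the largest moderated statistics among called genes of at least 5 FPKM without overlap, 2 per direction. Others, given by position, have the largest gains, losses, interaction statistics, levels above the floor, or the smallest differences among abundant genes, or lie in the 3 runs per direction with the most genes, ties going to the larger mean difference. Functional gene lists were left empty. Alternatives were a pseudocount of 0.1, other filters, scalings, fits and weights, a replicate block, and leaving out each library.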

Additional observations from a re-analysis of the deposited data

Results flagged for a closer look

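The interaction of copper with pH was called by limma for 3905 genes, and its values are on the log2(FPKM + 1) scale. The genes listed here were picked for their difference at pH 3 or for the interaction itself, so their values are a description. Among genes named above, copper raised Cs5g21860 more at pH 3, by 4.52. The gene orange1.1t03024 rose at pH 3 and fell at pH 4.8, an interaction of 5.74. The fall of orange1.1t00563 was smaller at pH 3, with an interaction of 0.64. The falls of the genes on chromosome 3 at 24497006 and on chromosome 2 at 3529556 were also smaller at pH 3, with interactions of 3.15 and 2.96. The genes on chromosome 3 at 18641380 and 22419247 fell at pH 3 and rose at pH 4.8, with interactions of -2.51 and -1.86.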

How the results depend on the processing

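Genes named above by gain, loss, statistic or interaction and called for copper at pH 3 kept direction and call under 16 alternatives. The exception was the gene on chromosome 4 at 7521236. It lost its call in 8, and its difference was 0 under quantile normalization, since its rank was the same in all 6 libraries. Calls for copper at pH 3 numbered 3600 to 7366 with 1 library left out. Called falls then numbered 1362 to 3189, those under 5 FPKM 268 to 587, those from 5 to 100 FPKM 854 to 2119 and those of at least 100 FPKM 240 to 483. In the same fits, falls of genes under 2 kb numbered 567 to 1237, rises of genes of at least 8 kb 87 to 493 and their falls 18 to 58. The fit to all 12 libraries called 6969 genes, 5558 of them among the 5644, with 69 falls at 8 kb or more. A pseudocount of 0.1 gave 1377 rises and 521 falls of at least 2-fold. Testing only genes of at least 5 FPKM left 238 rises and 82 falls in the lowest class, as fewer genes were tested. Quantile normalization gave 810 falls under 5 FPKM and 71 at 8 kb or more, and median scaling 79 at 8 kb or more. Array weights, chosen after seeing the data, gave copper-treated replicate 2 a weight of 0.274 and replicate 1 a weight of 2.43. They called 8743 genes with 3859 falls, 893 falls under 5 FPKM, 2917 rises and 2456 falls from 5 to 100 FPKM, 1415 falls under 2 kb, and 470 rises and 82 falls at 8 kb or more. Centring within bins of span, also chosen after seeing the data, gave 3650 falls, 839 of them under 5 FPKM, 2336 from 5 to 100 FPKM, 1365 under 2 kb and 124 at 8 kb or more, with 112 rises there. Runs allowed to skip 1 listed gene numbered 36 rising, and runs of any size of difference 125 rising and 73 falling. The floor of 0.5 FPKM gave 164 genes and 21 genes. The causes of these shifts were not tested except where stated.

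Replicate numbers are shared by the labels, but same-numbered libraries at pH 3 deviated together with r = -0.05, 0.24 and 0.25 across genes, and copper-treated replicate 1 matched control replicate 3 best, so they were not treated as pairs. With the replicate block 5937 genes were called. Depth limits genes near the floor, and a p that misses the threshold does not show an unchanged gene.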
